A study of Homo sapiens with 6 samples.

Results

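The genes described here are 50 effectors that interferons switch on, of the 60612 Ensembl gene identifiers counted in each library. They were chosen by name, as antiviral and other interferon-induced genes, and all 50 were found by symbol. A set of 44 are called type I-like here, and GBP1, GBP2, GBP3, GBP4, IDO1 and WARS1, which textbook accounts place among the strongest responders to interferon gamma, are called gamma-like. RNA was sequenced from the HER2-positive breast cancer line SKBR3, in 3 libraries of cells treated with rising concentrations of trastuzumab over 30 weeks (called trastuzumab here) and 3 libraries of untreated SKBR3 cells (called parental here). Trastuzumab is an antibody against the receptor HER2, and the stated purpose of the series was to follow expression as resistance to it forms. The labels do not state the trastuzumab concentrations, whether the antibody was present at harvest, whether the treated cells are 1 clone or a mixed population, or whether the replicates came from separate cultures. Every p-value below therefore measures only the spread between these libraries, which may be technical.

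Interferons are secreted proteins that warn cells of viruses and of misplaced nucleic acids. Type I and type III interferons act through receptors coupled to the kinases JAK1 and TYK2, which phosphorylate transcription factors that include STAT2. STAT2 joins IRF9 in a complex that binds the interferon-stimulated response element in the promoters of genes such as ISG15, IFIT1 and MX1. Interferon gamma acts through JAK1 and JAK2 on promoters with gamma-activated sites, and induces IRF1 and the guanylate-binding proteins. In carcinoma cells the same genes can also be switched on from within, when the sensors cGAS and RIG-I or MDA5 detect DNA or double-stranded RNA.

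Promoter sequence was compared for the 41 members that had a window in the RefSeq promoter table of build GRCh38.p14, each running from 250 bases before to 50 bases after a start site. The core of the response element, searched as GAAANNGAA on both strands, was in a window of 33 of these 41 members (80.5%), against 9.86% of the 27305 genes in the table. Of the members with a window, it was found in 10 of 13 whose RNA was higher in trastuzumab libraries, 3 of 4 whose RNA was lower, 11 of 13 that did not pass the test and 9 of 11 that were too low to test. The letters of a gamma-activated site, TTCNNNGAA, were in 12 of 41 members (29.3%), against 9.38% of all genes. They were in 2 of 13 members that were higher, 1 of 4 lower, 7 of 13 that did not pass and 2 of 11 too low to test. By set, they were in 2 of 4 gamma-like and 10 of 37 type I-like genes. A match describes letters and not a bound site. All 4 gamma-like genes with a window (GBP1, GBP3, GBP4 and WARS1) held the response element core, and so did 29 of 37 type I-like genes.

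The stretches below show how close together the cores lie in 6 members that differ in their RNA response, and in 2 genes with a gamma-activated site, IFI35 and the regulator IRF1. Capitals mark each copy of the searched motif on either strand that ends before the start site, and the stretches are read 5′ to 3′ along the gene.
ISG15, chr1:1013372-1013416, plus strand: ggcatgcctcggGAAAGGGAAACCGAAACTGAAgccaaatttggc
IFI6, chr1:27672265-27672360, minus strand: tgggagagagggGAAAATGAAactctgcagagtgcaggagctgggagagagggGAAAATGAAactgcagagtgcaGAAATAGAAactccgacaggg
OAS3, chr12:112938319-112938473, plus strand: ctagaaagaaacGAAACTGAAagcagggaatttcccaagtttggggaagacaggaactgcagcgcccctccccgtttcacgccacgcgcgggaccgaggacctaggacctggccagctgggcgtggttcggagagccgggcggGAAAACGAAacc
GBP1, chr1:89065314-89065346, minus strand: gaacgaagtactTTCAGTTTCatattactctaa
IFIT1, chr10:89392496-89392541, plus strand: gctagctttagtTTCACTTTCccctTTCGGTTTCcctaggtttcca
IFIH1, chr2:162318685-162318860, minus strand: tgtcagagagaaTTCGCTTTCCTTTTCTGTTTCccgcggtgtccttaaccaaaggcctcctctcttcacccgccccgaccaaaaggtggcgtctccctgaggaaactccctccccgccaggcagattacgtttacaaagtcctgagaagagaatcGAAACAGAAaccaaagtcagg
IFI35, chr17:43006750-43006782, plus strand: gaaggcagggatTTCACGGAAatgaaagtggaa
IRF1, chr5:132490877-132490909, minus strand: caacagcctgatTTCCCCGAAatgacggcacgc
In ISG15 3 overlapping cores began between 113 and 101 bases before the start site. IFIT1 held 2 cores between 115 and 102 bases before its start and IFIH1 held 4 between 164 and 21 bases before, so a close run of cores was present in a gene that was higher in trastuzumab libraries, one that did not pass the test and one that was lower.

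Depth ranged from 71015138 to 82857810 counts in trastuzumab libraries and from 71767118 to 72353624 in parental libraries. Levels below are CPM, counts divided by the library size in M after scaling with TMM factors, and 3 counts, the most that a count of 0 allows, equal 0.0372 to 0.0428 CPM by counting error alone. All 8 mammary epithelial and HER2 markers, such as KRT8, EPCAM and ERBB2, were detected in every library, summing to 23700 to 25500 CPM in trastuzumab and 20300 to 22000 CPM in parental libraries. The 8 leukocyte markers summed to 3.94 to 4.35 CPM in trastuzumab and 1.71 to 2.23 CPM in parental libraries, with ITGAM at 2.18 to 2.43 CPM and 0.0951 to 0.663 CPM in the same order, PTPRC at or below 0.31 CPM and CD2 at 0 in all 6. The 5 fibroblast markers summed to 4.63 to 8.64 CPM and 8.35 to 15.9 CPM in the same order, and the 4 endothelial markers, nearly all CDH5, to 79 to 86 CPM and 28.6 to 31.7 CPM. Mitochondrial genes took 2.41 to 2.79% of counts in trastuzumab and 3.63 to 4.16% in parental libraries. Their part in the results below was not tested.

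Of the 50 effectors, 38 had enough counts to test, and more were higher than lower in the trastuzumab cells: 17 rose, 4 fell and 17 did not pass. The rise took in the oligoadenylate synthetases OAS1, OAS2 and OAS3, the ubiquitin-like modifier ISG15, the PARP9 and DTX3L pair, the guanylate-binding proteins GBP1 and GBP2, and LGALS3BP, the most abundant of the 50. Across all 17854 tested genes 49.3% changed, 23.9% higher and 25.4% lower, so changed genes were common throughout. Of the tested members 44.7% were higher and 10.5% lower. Among the 38 tested members the CPM of the groups did not overlap in 18 with higher values in trastuzumab libraries (47.4%) and 5 with lower values (13.2%), against 28.3% and 29.2% of all tested genes. A fitted rise of at least 2-fold with an adjusted p below 0.05 was seen in 12 members, against 3.85% of all tested genes higher, and the lowest fitted value among the members was -0.54 (EIF2AK2), short of a 2-fold fall, which 3.93% of all tested genes reached with such a p. In bulk RNA, fewer cells with an RNA and less of it per cell cannot be told apart. The median log2 fold change (trastuzumab over parental) was 0.49 over the 38 members and -0.006 over all tested genes, whose quartiles lay at -0.44 and 0.38. A member low in 1 group could pass the filter through the other group. The 29 members whose means reached 1 CPM in each group were therefore also counted alone. Of them 14 rose, 4 fell and 11 had no call, with a median of 0.36. The share of all genes at that level was not counted. With a filter of at least 1 CPM in 3 libraries, 8615 of 13294 genes changed in either direction, and of 31 members 16 were higher and 4 lower. The shares of those 13294 genes higher and lower were not counted. The members and lists were chosen with earlier results of these data known, and these counts are a description.

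Fold changes in this series followed base composition, and this touches each value below. Over 11666 protein-coding genes of at least 1 CPM, log2 fold change rose with transcript GC content (Spearman's rho 0.642 across genes, which are not independent replicates) and fell with length (rho -0.321). A second fit, called corrected here, removed a trend on GC content and length from each library, and rho with GC content was then 0.0485. In it 38.0% of 17649 genes changed, 19.0% in each direction, and among the members 16 were higher, 1 was lower and the median was 0.60. Of the members, 14 were higher in both fits. All 4 falls were lost in the corrected fit, as were the rises of IFITM3, USP18 and TRIM14, while SAMD9 and PARP14 passed as higher and IFITM2 as lower. The members ranged from 36.1% GC (SAMD9) to 64.0% (ISG15). Median GC content was 49.8% for the 17 that rose, 45.8% for the 4 that fell and 48.1% for the 38 tested. It was 49.7% for all tested genes. Among type I-like genes it was 51.6% for those that rose and 41.7% for those that fell. Where the trend goes with the treatment, the corrected fit also removes real changes linked to composition, and which it removes cannot be told apart.

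**Figure D1:**
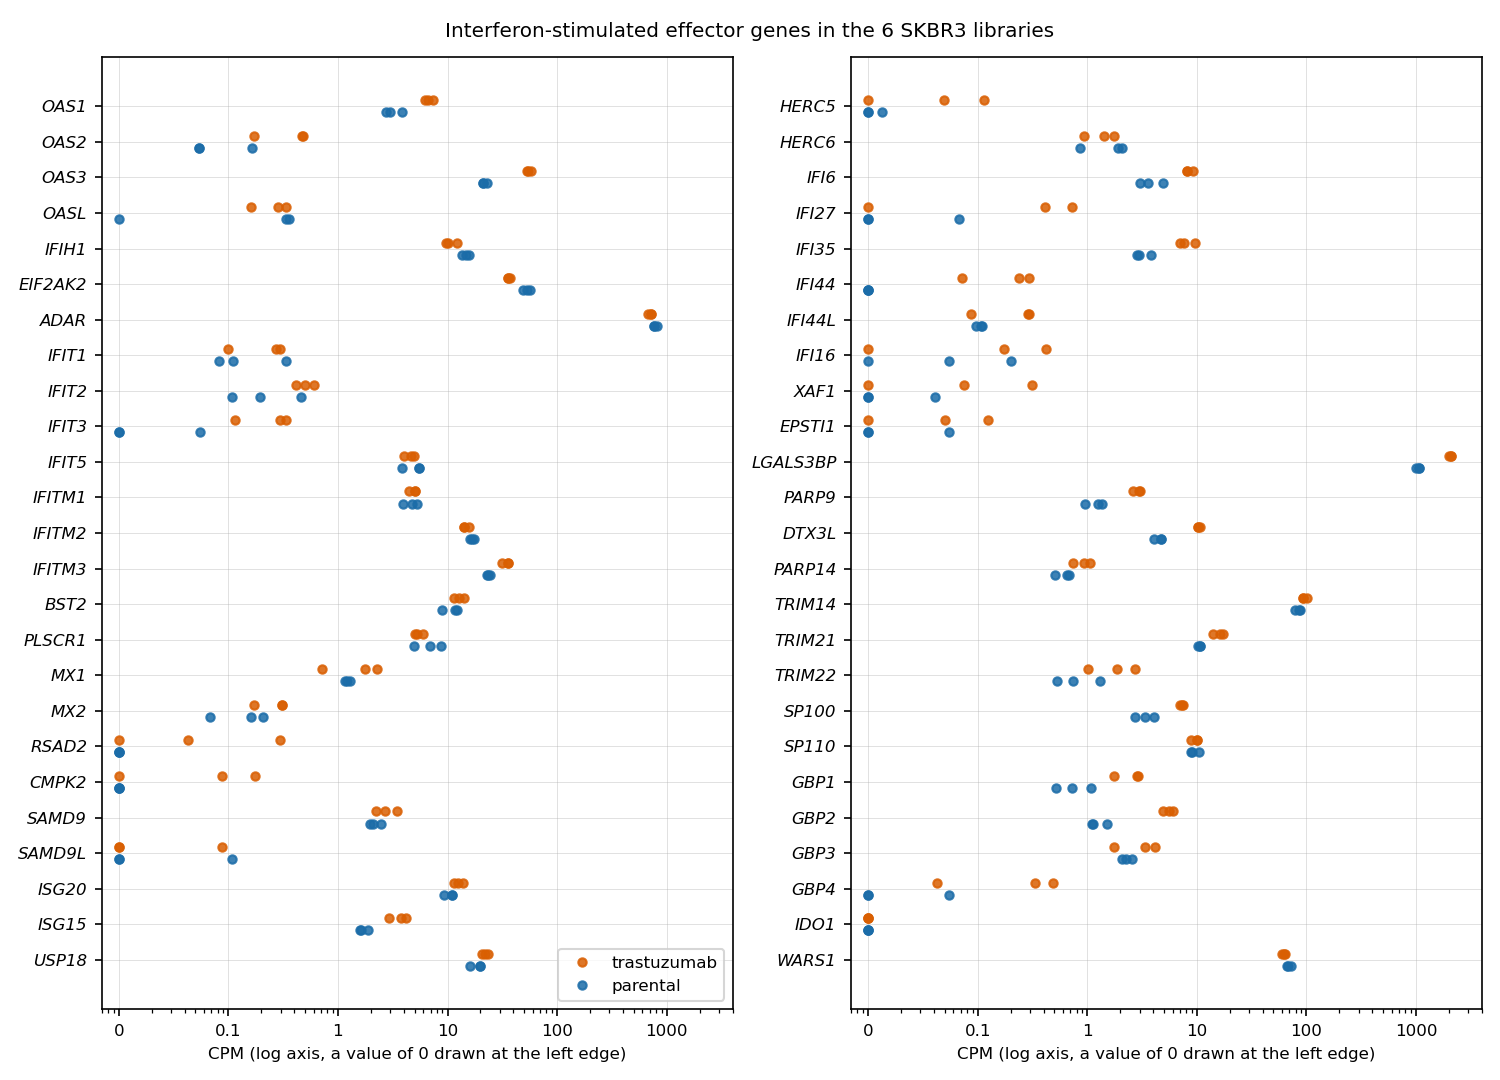
CPM of the 50 members in each library on a log axis, with trastuzumab libraries above parental libraries and a value of 0 drawn at the left. LGALS3BP lies at 2000 to 2090 CPM in trastuzumab and 1010 to 1060 CPM in parental libraries, while IFIT1, MX2 and OASL stay below 1 CPM in all 6.

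**Figure D2:**
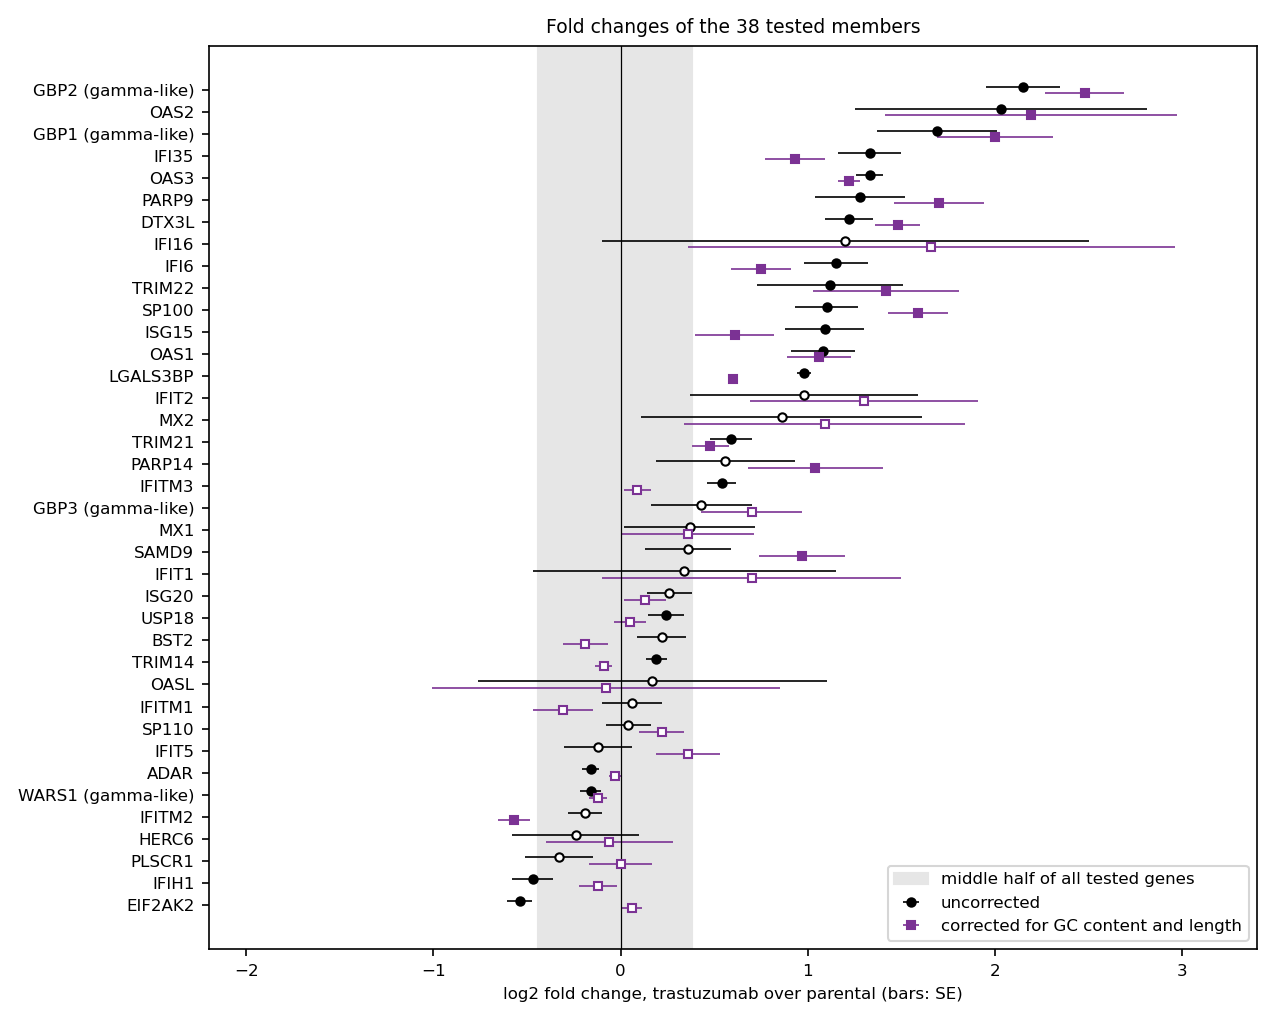
Fitted log2 fold change (trastuzumab over parental) with its SE for the 38 tested members, without (circles) and with (squares) correction for GC content and length, filled where the adjusted p was below 0.05. The grey band spans the quartiles of all tested genes, -0.44 to 0.38, and 14 members lie to its right with both symbols filled.

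The double-stranded RNA sensors and effectors split. The synthetases OAS1, OAS2 and OAS3, which make the second messenger that activates RNase L, rose, and the kinase gene EIF2AK2, the sensor gene IFIH1 and the editor ADAR fell in the uncorrected fit. OAS3 (ENSG00000111331, hg38 chr12:112938352-112973249) had 54.4, 53.1 and 57.4 CPM in trastuzumab libraries, against 21.3, 21.3 and 23.1 CPM in parental libraries. The groups did not overlap, and the log2 fold change was 1.33 ± 0.071 (SE, edgeR adjusted p = 4.44e-10) or 1.22 corrected. OAS1 (ENSG00000089127), its neighbour on chromosome 12, had 6.57, 7.41 and 6.22 CPM in trastuzumab libraries, against 2.72, 3.83 and 2.98 CPM in parental libraries, again without overlap. Its log2 fold change was 1.08 ± 0.17 (SE, edgeR adjusted p = 5.29e-05), and 1.06 corrected. OAS2, the third gene of that cluster, was near the limit of detection, at 0.171, 0.483 and 0.474 CPM in trastuzumab libraries, against 0.0541, 0.0543 and 0.165 CPM in parental libraries. Its fitted change was 2.03 ± 0.78 (SE, edgeR adjusted p = 0.0402), and 2.76 without parental replicate 3. The call was lost when parental replicate 1 (0.131) or 2 (0.126) or trastuzumab replicate 2 (0.171) or 3 (0.169) was left out. It was also lost with no filter on low counts (edgeR adjusted p = 0.0597) and in DESeq2 (adjusted p = 0.0524). OASL, a catalytically inactive relative elsewhere on the same chromosome, lay between 0.162 and 0.335 CPM in trastuzumab and between 0 and 0.358 CPM in parental libraries and did not pass.

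EIF2AK2 encodes PKR, the kinase that stops translation when it binds double-stranded RNA. Its RNA was at 37.1, 36.0 and 36.0 CPM in trastuzumab libraries, against 56.3, 53.1 and 49.3 CPM in parental libraries, a log2 fold change of -0.54 ± 0.067 (SE, edgeR adjusted p = 4.59e-06) without overlap. IFIH1, which encodes the sensor MDA5, averaged 10.6 ± 1.30 CPM in trastuzumab and 14.7 ± 1.12 CPM in parental libraries (SD, n = 3 each) and fell by 0.47 on the log2 scale (edgeR adjusted p = 0.00238). ADAR, the editor that converts adenosine to inosine in double-stranded RNA, had 719, 671 and 725 CPM in trastuzumab libraries, against 774, 769 and 819 CPM in parental libraries. The groups did not overlap, but the fall was small, at -0.16 ± 0.044 (SE, edgeR adjusted p = 0.0062). These falls took place in transcripts of 39.6% (EIF2AK2), 41.7% (IFIH1) and 49.8% GC (ADAR), and in the corrected fit they came to 0.06, -0.12 and -0.03 on the log2 scale, with edgeR adjusted p = 0.438, 0.41 and 0.611. EIF2AK2 overlaps GPATCH11 on the other strand, and the strand setting of the counting is not given in the sources used here.

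The IFIT proteins, which seize viral RNA lacking the host's cap methylation, did not pass in any of the 3 members tested. IFIT5 was the most counted, at 4.55 ± 0.485 CPM in trastuzumab and 4.94 ± 0.982 CPM in parental libraries (SD, n = 3 each). IFIT1, among the most strongly induced genes of a type I response, had 0.0999, 0.273 and 0.299 CPM in trastuzumab libraries, against 0.338, 0.0815 and 0.11 CPM in parental libraries, with the groups overlapping. IFIT2 had 0.414, 0.496 and 0.599 CPM in trastuzumab libraries, against 0.46, 0.109 and 0.193 CPM in parental libraries. IFIT1, IFIT2 and IFIT3 overlap LIPA on the other strand.

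Among the factors that act at membranes, IFITM3, which blocks the entry of enveloped viruses from endosomes, had 31.5, 35.4 and 35.5 CPM in trastuzumab libraries, against 24.3, 23.5 and 22.8 CPM in parental libraries. Its log2 fold change was 0.54 ± 0.076 (SE, edgeR adjusted p = 1.76e-05), and 0.09 corrected (edgeR adjusted p = 0.35). IFITM2 averaged 14.7 ± 0.869 CPM in trastuzumab and 16.8 ± 0.723 CPM in parental libraries (SD, n = 3 each), not past the test at -0.19 but lower at -0.57 corrected (edgeR adjusted p = 4.56e-05). IFITM1 overlaps IFITM2 on the same strand and the 3 IFITM genes are closely similar in sequence, so how their reads were shared out is uncertain. BST2 or tetherin, which holds budding virions at the cell surface, had 12.8 ± 1.30 and 11.0 ± 1.73 CPM in trastuzumab and parental libraries (SD, n = 3 each) and did not pass. PLSCR1, a phospholipid scramblase with antiviral activity, had 5.42 ± 0.466 and 6.84 ± 1.89 CPM in that order and passed, as lower, when parental replicate 3 was left out (-0.52, edgeR adjusted p = 0.0153).

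The dynamin-like GTPases and other restriction factors gave no call in the uncorrected fit. MX1, which traps incoming viral nucleoprotein, had 0.714, 1.76 and 2.27 CPM in trastuzumab libraries, against 1.2, 1.17 and 1.29 CPM in parental libraries. Trastuzumab replicate 1 lay below all parental libraries and the other two above them, and the fitted change was 0.37 ± 0.35 (SE, edgeR adjusted p = 0.423). SAMD9, which restricts poxvirus replication, averaged 2.78 ± 0.620 CPM in trastuzumab and 2.17 ± 0.273 CPM in parental libraries (SD, n = 3 each). At 36.1%, SAMD9 had the lowest GC content of the 50 members, and its change was 0.36 uncorrected and 0.97 corrected (edgeR adjusted p = 0.218 and 0.00304). ISG20, an exonuclease of single-stranded RNA, had 12.5 ± 1.25 CPM in trastuzumab and 10.4 ± 0.962 CPM in parental libraries (SD, n = 3 each) and passed, as higher, without trastuzumab replicate 1 (0.33, edgeR adjusted p = 0.0481).

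The system that attaches ISG15 to other proteins rose in part. ISG15 (ENSG00000187608, hg38 chr1:1001138-1014540), the modifier itself, had 2.95, 3.73 and 4.18 CPM in trastuzumab libraries, against 1.88, 1.6 and 1.61 CPM in parental libraries. All 3 trastuzumab libraries lay above all parental ones, with a log2 fold change of 1.09 ± 0.21 (SE, edgeR adjusted p = 0.000409), and 0.61 ± 0.21 corrected (edgeR adjusted p = 0.0325). With correction and the replicate number as a block, ISG15 was again at 0.61 but lost its call (edgeR adjusted p = 0.0612). UBA7, the activating enzyme of ISG15 and not itself among the 50, had 10.3, 10.9 and 12.3 CPM in trastuzumab libraries, against 3.95, 4.18 and 2.61 CPM in parental libraries, a change of 1.64 ± 0.17 (SE, edgeR adjusted p = 5.63e-07) and 1.32 corrected. UBE2L6, the conjugating enzyme, had 3.37 ± 0.325 and 2.97 ± 0.396 CPM in trastuzumab and parental libraries (SD, n = 3 each) and did not pass. USP18, the protease that removes ISG15 and also damps the type I receptor, had 22.0 ± 1.45 CPM in trastuzumab and 18.6 ± 2.12 CPM in parental libraries (SD, n = 3 each). Its rise of 0.24 (edgeR adjusted p = 0.0443) was lost without parental replicate 1 (0.15, 0.198) and without trastuzumab replicate 1 (0.0924) or 2 (0.172), and came to 0.05 corrected. The ligases HERC5, with at most 8 counts in a library, and HERC6, at 1.37 ± 0.418 CPM in trastuzumab and 1.61 ± 0.653 CPM in parental libraries (SD, n = 3 each), gave no call.

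LGALS3BP (ENSG00000108679, hg38 chr17:78971238-78980109) encodes a secreted glycoprotein that binds galectins and is abundant in many carcinomas. It had 2000, 2070 and 2090 CPM in trastuzumab libraries, against 1010, 1060 and 1060 CPM in parental libraries, a 1.97-fold rise. The spread within each group was far smaller than the difference, with a log2 fold change of 0.98 ± 0.039 (SE, edgeR adjusted p = 2.19e-11), and 0.60 ± 0.028 corrected. IFI6, a mitochondrial and endoplasmic reticulum protein that protects cells from apoptosis, had 8.17, 9.29 and 8.16 CPM in trastuzumab libraries, against 3.06, 4.86 and 3.6 CPM in parental libraries. IFI35, a leucine zipper protein that acts in innate immune signalling, had 7.65, 9.52 and 7.06 CPM in trastuzumab libraries, against 3.8, 2.85 and 2.96 CPM in parental libraries. Both rose without overlap, by 1.15 ± 0.17 for IFI6 (edgeR adjusted p = 2.78e-05) and 1.33 ± 0.17 for IFI35 (edgeR adjusted p = 5.79e-06) on the log2 scale with SE, or 0.75 and 0.93 corrected. IFI16, a nuclear DNA sensor, was at 0 in trastuzumab replicate 1 and parental replicate 2, reached at most 0.424 CPM and did not pass.

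The PARP and TRIM genes rose in 5 of 6 members (83.3%, against 23.9% of all tested genes), of which the calls of TRIM14 and TRIM22 did not hold in every setting, as given below. DTX3L, a ubiquitin ligase, and PARP9, an ADP-ribosyltransferase family member that partners it, start beside each other on chromosome 3 and overlap on opposite strands. DTX3L (ENSG00000163840, hg38 chr3:122564238-122575203) had 10.3, 10.2 and 10.7 CPM in trastuzumab libraries, against 4.71, 4.7 and 4.04 CPM in parental libraries. PARP9 (ENSG00000138496) had 2.98, 3.05 and 2.62 CPM in trastuzumab libraries, against 1.24, 1.36 and 0.963 CPM in parental libraries. Neither overlapped between groups, with log2 fold changes of 1.22 ± 0.13 for DTX3L (SE, edgeR adjusted p = 8.24e-07) and 1.28 ± 0.24 for PARP9 (SE, edgeR adjusted p = 0.00026). Both have GC contents below the median of all tested genes, at 44.7% (DTX3L) and 43.4% (PARP9), and their rises were 1.48 and 1.70 corrected. PARP14, on the same chromosome arm, had 0.907 ± 0.161 and 0.612 ± 0.0909 CPM in trastuzumab and parental libraries (SD, n = 3 each) and passed only with correction, at 1.04 against 0.56 uncorrected (edgeR adjusted p = 0.0337 and 0.229).

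Of the TRIM family, TRIM21, a receptor for antibody-coated virus inside cells, had 13.9, 17.4 and 16.1 CPM in trastuzumab libraries, against 10.6, 10.6 and 10.2 CPM in parental libraries. It rose by 0.59 ± 0.11 (SE, edgeR adjusted p = 0.000182), and by 0.48 corrected. TRIM22, an antiviral ubiquitin ligase, had 1.01, 1.87 and 2.71 CPM in trastuzumab libraries, against 1.3, 0.53 and 0.743 CPM in parental libraries, so the groups overlapped. Its change of 1.12 ± 0.39 (SE, edgeR adjusted p = 0.0271) lost its call without parental replicate 2 (0.103) or 3 (0.102) and without trastuzumab replicate 2 (0.0681) or 3 (0.179). TRIM14, an adaptor in antiviral signalling, had 95.4 ± 4.93 CPM in trastuzumab and 83.9 ± 4.24 CPM in parental libraries (SD, n = 3 each). Its rise of 0.19 (edgeR adjusted p = 0.0107) was lost without parental replicate 1 (0.059) or trastuzumab replicate 3 (0.0933) and was -0.09 corrected. SP100, a scaffold of nuclear bodies that silence viral DNA, had 7.42, 7.36 and 6.95 CPM in trastuzumab libraries, against 4.09, 3.35 and 2.71 CPM in parental libraries, and rose by 1.10 ± 0.17 (SE, edgeR adjusted p = 4e-05), or 1.59 corrected. SP110, near it on chromosome 2, was at 9.62 ± 0.664 and 9.38 ± 0.865 CPM in trastuzumab and parental libraries (SD, n = 3 each) and did not pass.

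Among the gamma-like genes the GBP cluster on chromosome 1 rose in 2 of its 3 tested members, and the tryptophan enzymes did not rise. Guanylate-binding proteins are GTPases that coat intracellular bacteria and vacuoles. GBP2 (ENSG00000162645, hg38 chr1:89106132-89150456) had 4.95, 6.06 and 5.57 CPM in trastuzumab libraries, against 1.1, 1.14 and 1.5 CPM in parental libraries, a 4.44-fold rise. Its log2 fold change of 2.15 ± 0.20 (SE, edgeR adjusted p = 2.1e-07) was the largest among the 38 tested members in the uncorrected fit, and was 2.48 corrected. GBP1 (ENSG00000117228, hg38 chr1:89052319-89065360) had 1.76, 2.89 and 2.86 CPM in trastuzumab libraries, against 1.08, 0.72 and 0.523 CPM in parental libraries. It rose without overlap by 1.69 ± 0.32 (SE, edgeR adjusted p = 0.000272), or 2.0 corrected. GBP3 had 1.77, 3.35 and 4.15 CPM in trastuzumab libraries, against 2.07, 2.54 and 2.26 CPM in parental libraries. Trastuzumab replicate 1 lay below all parental libraries, and the change of 0.43 ± 0.27 (SE, edgeR adjusted p = 0.202) passed without that library (0.71, edgeR adjusted p = 0.017). GBP4 had 0.0428, 0.483 and 0.337 CPM in trastuzumab libraries, against 0, 0.0543 and 0 CPM in parental libraries, too low for the filter of the main fit. The GBP genes are close paralogs, and reads could have been shared out between them. GBP1, GBP2, GBP3 and GBP4 have 41.5 to 43.3% GC, below the median of all tested genes, and the corrected rises of GBP1 and GBP2 were larger than the uncorrected ones.

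IDO1, the tryptophan-degrading enzyme that interferon gamma induces in many carcinoma lines, had 0 counts in all 6 libraries. WARS1, the tryptophanyl-tRNA synthetase that gamma also induces, had 63.2, 59.8 and 62.1 CPM in trastuzumab libraries, against 67.5, 66.7 and 72.3 CPM in parental libraries. The groups did not overlap but the fall was small, at -0.16 ± 0.056 (SE, edgeR adjusted p = 0.0273), and lost its call without parental replicate 3 (0.0838), without trastuzumab replicate 2 (0.104) or 3 (0.0658), and with correction (-0.12, 0.057). Of the other genes known to respond to gamma, GBP5, CIITA, NLRC5 and CXCL10 were tested and did not pass. CIITA, the regulator of HLA class II, was the most counted of them at 4.19 ± 0.506 CPM in trastuzumab and 3.17 ± 0.498 CPM in parental libraries (SD, n = 3 each). Among the 34 type I-like genes tested 15 rose, 3 fell and 16 had no call, with a median log2 fold change of 0.45, and among the 4 gamma-like genes tested 2 rose, 1 fell and 1 had no call. The shares higher were 44.1% (type I-like) and 50% (gamma-like), against 23.9% of all tested genes, and the shares lower 8.82% and 25%, against 25.4%. In the corrected fit 14 type I-like genes rose and 1 fell, and 2 gamma-like genes rose and 0 fell, with WARS1 at an edgeR adjusted p = 0.057. The difference between the 2 sets was not tested.

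The 12 members under the filter on low counts were IFIT3, RSAD2, CMPK2, SAMD9L, HERC5, IFI27, IFI44, IFI44L, XAF1, EPSTI1, GBP4 and IDO1, several of them hallmarks of a strong type I response. Together they held 47, 234 and 149 counts in trastuzumab replicates 1, 2 and 3, against 17, 20 and 15 counts in parental libraries, or 0.671, 2.90 and 1.86 CPM against 0.23, 0.272 and 0.206 CPM. IFI44 had 5, 24 and 19 counts in trastuzumab libraries and 0 in the parental libraries. Set against a floor of 3 counts over the parental group, this was 15.3-fold higher. RSAD2, which encodes viperin, had 3, 24 and 0 counts in trastuzumab libraries and 0 in parental libraries. Replicate 2 carried nearly all of these counts, and without it 3 counts remained, the same as the floor, so no fold is given. CMPK2, which neighbours RSAD2, had 0, 14 and 7 counts in trastuzumab libraries and 0 in parental libraries. Against the same floor this was 6.68-fold higher, or 3.42-fold without replicate 2, where all 7 remaining counts came from replicate 3. IFIT3 had 8, 24 and 27 counts in trastuzumab libraries, against 0, 0 and 4 in parental libraries, and IFI27 had 0, 58 and 33, against 5, 0 and 0. These folds allow for counting error in the parental 0 alone, take the trastuzumab counts as exact and come from no test. With no filter on low counts, edgeR tested 49 members, all but IDO1. Of these 19 were higher and 4 lower, and 8723 of 30482 genes changed. DESeq2 on the same genes gave 19 members higher and 3 lower, with 8700 genes changed.

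Trastuzumab replicate 1 was the lowest of its group for many weakly expressed members. Among the 24 members with a count whose mean was below 3 CPM in both groups, replicate 1 was the lowest trastuzumab library in 16, replicate 2 in 1 and replicate 3 in 6. Of these, 13 were tested, with replicate 1 lowest in 9, against 35.2% of all 6262 tested genes with means below 3 CPM. These members summed to 13.7, 19.5 and 19.4 CPM in trastuzumab replicates 1, 2 and 3, against 11.3, 9.02 and 8.66 CPM in parental libraries, so all 3 trastuzumab sums were above all parental ones. Among the 25 members whose mean reached 3 CPM in a group the lowest was replicate 1 in 11, replicate 2 in 6 and replicate 3 in 8. Fibroblast markers summed to 4.63, 7.04 and 8.64 CPM in trastuzumab replicates 1, 2 and 3, and to 8.35, 15.9 and 9.98 CPM in parental libraries. The leukocyte sums (3.94, 4.04 and 4.35 CPM) and endothelial sums (79, 84 and 86 CPM) were also lowest in trastuzumab replicate 1. The mammary epithelial and HER2 sum was lowest in trastuzumab replicate 3, at 23700 CPM. The part of these markers was not tested. Leaving out trastuzumab replicates 2 and 3 left 1 library in that group, so only log2 fold changes are given. OAS3, IFI35 and LGALS3BP were then at 1.31, 1.26 and 0.94, against 1.33, 1.33 and 0.98 with all libraries. GBP1 and ISG15 were at 1.18 and 0.80, against 1.69 and 1.09.

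**Figure D3:**
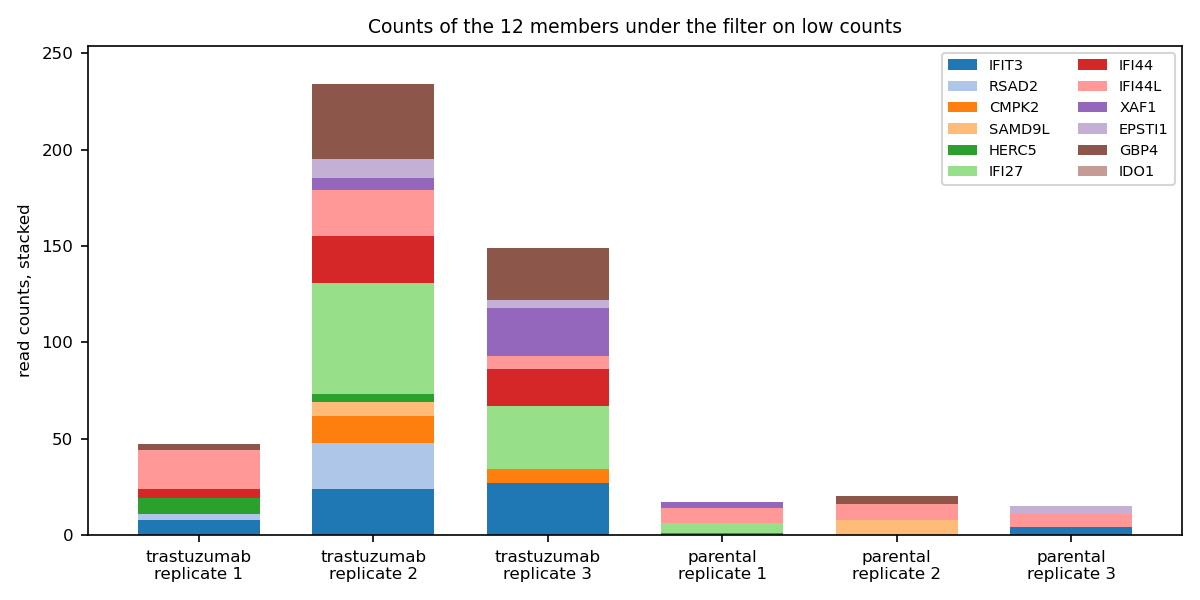
Read counts of the 12 members under the filter on low counts, stacked by gene, in the 3 trastuzumab libraries and the 3 parental libraries. The stacks reach 47, 234 and 149 counts in trastuzumab libraries, against 17, 20 and 15 counts in parental libraries, and IFI27 and GBP4, at 58 and 39 counts, take the largest parts of trastuzumab replicate 2.

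Levels of different members can be set side by side only per length, in the FPKM values that the authors deposited. LGALS3BP stood far above the rest, at 515 ± 10.8 FPKM in trastuzumab and 274 ± 5.84 FPKM in parental libraries (SD, n = 3 each). ADAR followed at 62.9 ± 2.74 and 73.7 ± 1.78 FPKM, and IFITM3 at 25.4 ± 1.65 and 18.4 ± 0.772 FPKM, in the same order of groups. TRIM14 came next, at 14.9 ± 0.757 and 13.8 ± 0.592 FPKM. Below it the levels of USP18, BST2, WARS1 and IFITM2 lay within 8.17 to 10.2 FPKM in trastuzumab and 8.97 to 9.78 FPKM in parental libraries. There, neighbours differed by less than their spread in at least 1 group. OAS3 was at 5.77 ± 0.228 and 2.41 ± 0.0924 FPKM and ISG15 at 3.57 ± 0.603 and 1.74 ± 0.171 FPKM in trastuzumab and parental libraries (SD, n = 3 each). GBP2, the member with the largest fitted rise, reached 0.657 ± 0.0651 FPKM in trastuzumab and 0.153 ± 0.0231 FPKM in parental libraries (SD, n = 3 each). The 3 most abundant members changed by less than 2-fold.

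**Figure D4:**
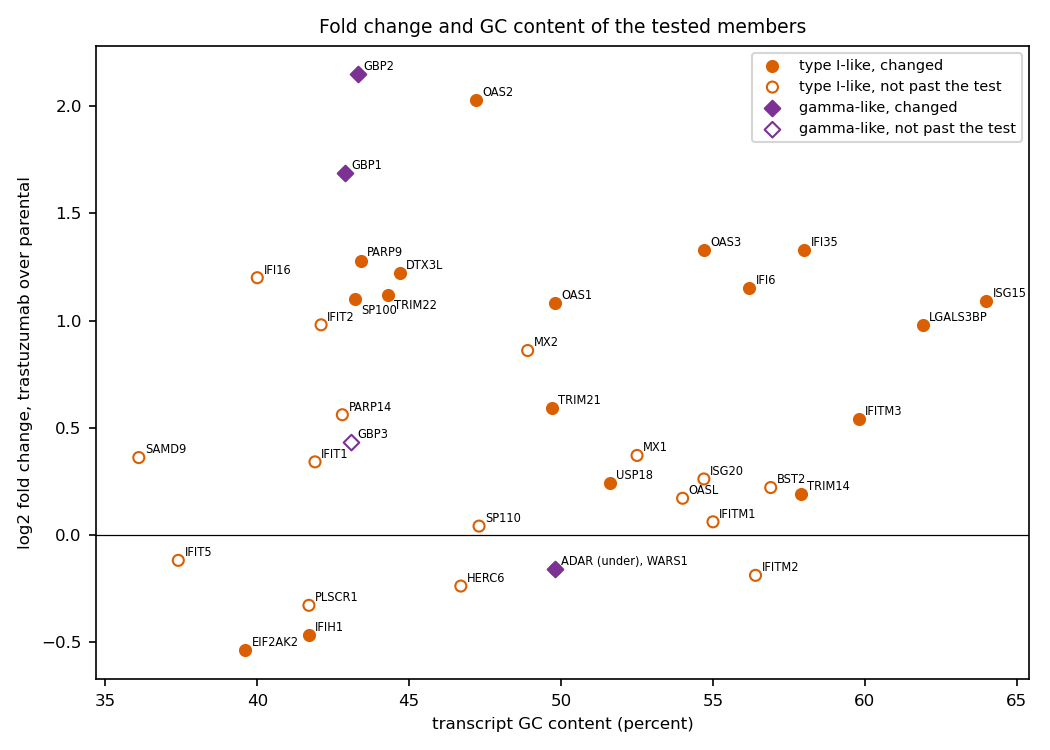
Uncorrected log2 fold change (trastuzumab over parental) of the 38 tested members against transcript GC content in percent, filled where the gene passed the test. Rises span GBP1 at 42.9% to ISG15 at 64.0% GC, and no member of lower GC content than GBP1 passed as higher in this fit, while EIF2AK2 at 39.6% and IFIH1 at 41.7% fell.

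The genes upstream of these effectors were read from a list of 52, of which 36 were tested. Of these 14 rose, 9 fell and 13 had no call, with a median log2 fold change of 0.22. That is 38.9% higher and 25% lower, against 23.9% and 25.4% of all tested genes, and in the corrected fit 12 rose, 7 fell and the median was 0.10. None of the 9 interferon genes on the list was detected at a level to test: IFNA1, IFNB1, IFNE, IFNK, IFNW1, IFNL1, IFNL2 and IFNL3 had 0 counts in all 6 libraries and IFNG reached 0.108 CPM in parental replicate 1 alone. Among the receptors IFNAR1, the signalling chain for type I interferons, had 43.2, 38.1 and 43.7 CPM in trastuzumab libraries, against 74.0, 75.5 and 64.3 CPM in parental libraries, a log2 fold change of -0.78 ± 0.073 (SE, edgeR adjusted p = 2.36e-07) and -0.43 corrected. Its partner IFNAR2 had 36.4, 36.1 and 39.2 CPM in trastuzumab libraries, against 32.0, 33.9 and 28.1 CPM in parental libraries, and its rise of 0.25 (edgeR adjusted p = 0.0153) was lost without parental replicate 3 (0.0664) or trastuzumab replicate 3 (0.0821). IFNGR2, the second chain of the gamma receptor, had 34.8, 31.4 and 31.4 CPM in trastuzumab libraries, against 21.0, 19.8 and 19.6 CPM in parental libraries, and rose by 0.69 ± 0.076 (SE, edgeR adjusted p = 1.25e-06), or 0.48 corrected. IFNGR1, which binds gamma, was at 32.2 ± 1.36 CPM in trastuzumab and 31.6 ± 1.59 CPM in parental libraries (SD, n = 3 each) and passed only with correction (0.39, edgeR adjusted p = 0.000164). IL10RB, shared by the type III receptor, rose to 66.4 ± 2.92 CPM in trastuzumab libraries, against 45.2 ± 2.80 CPM in parental libraries (SD, n = 3 each), and IFNLR1 did not pass at 3.35 ± 0.187 and 3.28 ± 0.450 CPM in that order.

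The kinases split too. JAK1, which serves all 3 receptor types, had between 96.7 and 104 CPM in trastuzumab libraries, against 122 to 127 CPM in parental libraries, and fell by 0.31 on the log2 scale (edgeR adjusted p = 4.81e-05). JAK2, which serves the gamma receptor, had 2.93, 2.17 and 2.33 CPM in trastuzumab libraries, against 4.92, 5.17 and 4.13 CPM in parental libraries, and fell by 0.94 (edgeR adjusted p = 0.000526). TYK2, which serves the type I receptor, had 56.7, 60.8 and 62.2 CPM in trastuzumab libraries, against 42.2, 44.2 and 46.3 CPM in parental libraries, and rose by 0.44 (edgeR adjusted p = 2.25e-05). All 3 kept their calls with correction, at -0.19 (JAK1), -0.48 (JAK2) and 0.18 (TYK2).

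STAT2 and IRF9, which act together at the response element, did not pass. STAT2 had 43.7, 39.0 and 46.0 CPM in trastuzumab libraries, against 39.7, 46.9 and 42.7 CPM in parental libraries, with the groups overlapping and a change of -0.01 ± 0.079 (SE, edgeR adjusted p = 0.958). IRF9 had 0.328, 0.781 and 1.41 CPM in trastuzumab libraries, against 0.419, 0.557 and 0.454 CPM in parental libraries, and its change of 0.82 ± 0.49 (SE, edgeR adjusted p = 0.188) passed without trastuzumab replicate 1 (1.20, edgeR adjusted p = 0.0363).

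IRF1, the factor that gamma induces and that can itself activate GBP genes, had the largest rise of the 9 transcription factors tested. It had 26.1, 30.1 and 28.1 CPM in trastuzumab libraries, against 10.3, 8.94 and 10.8 CPM in parental libraries, a log2 fold change of 1.49 ± 0.096 (SE, edgeR adjusted p = 3.74e-09) and 1.37 corrected. IRF7, the amplifier of type I interferon synthesis, had 7.07, 6.90 and 5.44 CPM in trastuzumab libraries, against 2.77, 3.87 and 3.31 CPM in parental libraries, and rose by 0.96 (edgeR adjusted p = 0.000211), or 0.57 corrected. IRF5, best known from myeloid cells, had 2.36, 2.86 and 3.8 CPM in trastuzumab libraries, against 1.35, 1.29 and 1.32 CPM in parental libraries, and rose by 1.19 (edgeR adjusted p = 0.000556), or 0.84 corrected. IRF3, which is activated by phosphorylation, had 124 ± 9.76 CPM in trastuzumab and 93.6 ± 3.74 CPM in parental libraries (SD, n = 3 each), and its rise of 0.40 came to 0.03 corrected. IRF2 (13.2 ± 1.00 and 12.6 ± 1.67 CPM in trastuzumab and parental libraries, SD, n = 3 each) and IRF8 (at most 0.335 CPM in a library) did not pass.

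Among the sensors and adaptors, STING1, the adaptor for cytosolic DNA, had 8.32, 9.44 and 10.3 CPM in trastuzumab libraries, against 3.58, 3.64 and 4.11 CPM in parental libraries, and rose by 1.31 ± 0.14 (SE, edgeR adjusted p = 1.11e-06), or 0.97 corrected. CGAS, the DNA sensor upstream of it, was barely detected, at 0.0714, 0.0496 and 0.0499 CPM in trastuzumab libraries, against 0.338, 0.231 and 0.358 CPM in parental libraries. Its call as lower (edgeR adjusted p = 0.0208) was lost without parental replicate 1 (0.087) or 3 (0.089) and without trastuzumab replicate 2 (0.0721) or 3 (0.0758). MAVS, the adaptor of the RNA sensors, rose to 344 ± 7.05 CPM in trastuzumab libraries, against 263 ± 9.69 CPM in parental libraries (SD, n = 3 each). IKBKE, a kinase that phosphorylates IRF3 and IRF7, rose to 53.7 ± 1.42 CPM in trastuzumab libraries, against 27.9 ± 1.74 CPM in parental libraries (SD, n = 3 each). Its relative TBK1 fell to 21.7 ± 0.295 CPM in trastuzumab libraries, against 28.1 ± 2.43 CPM in parental libraries (SD, n = 3 each), a change of -0.37 that was 0.08 corrected. RIGI, which encodes RIG-I, had 1.11, 1.16 and 1.08 CPM in trastuzumab libraries, against 2.34, 1.72 and 1.47 CPM in parental libraries, and its call as lower (-0.72, edgeR adjusted p = 0.0398) was lost without parental replicate 1 (0.203) or 2 (0.0614), without trastuzumab replicate 1 (0.0822), 2 (0.0776) or 3 (0.0926) and with correction (0.379).

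Of the inhibitors of the pathway, PIAS1, which restrains transcription in the pathway, fell to 13.0 ± 0.708 CPM in trastuzumab libraries, against 24.1 ± 1.62 CPM in parental libraries (SD, n = 3 each). PTPN2, a phosphatase of JAK1, had 11.8, 11.9 and 12.4 CPM in trastuzumab libraries, against 18.9, 19.9 and 20.5 CPM in parental libraries. Corrected, these falls were -0.44 (PIAS1) and -0.25 (PTPN2), against -0.89 and -0.72 uncorrected. SOCS3, a feedback inhibitor of JAK kinases, was at 3.50 ± 0.589 CPM in trastuzumab and 2.27 ± 0.558 CPM in parental libraries (SD, n = 3 each). Its rise of 0.62 (edgeR adjusted p = 0.0312) was lost without parental replicate 1 (0.0643) or 3 (0.131), without trastuzumab replicate 1 (0.0739) or 2 (0.146) and with correction (0.52). The phosphatase PTPN6 rose to 37.8 ± 2.96 CPM in trastuzumab libraries, against 29.6 ± 0.935 CPM in parental libraries (SD, n = 3 each), a change of 0.35 that was 0.02 corrected. SOCS1, the main feedback inhibitor of the gamma response, had 3.69 ± 0.892 and 3.93 ± 0.703 CPM in trastuzumab and parental libraries (SD, n = 3 each) and did not pass.

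**Figure D5:**
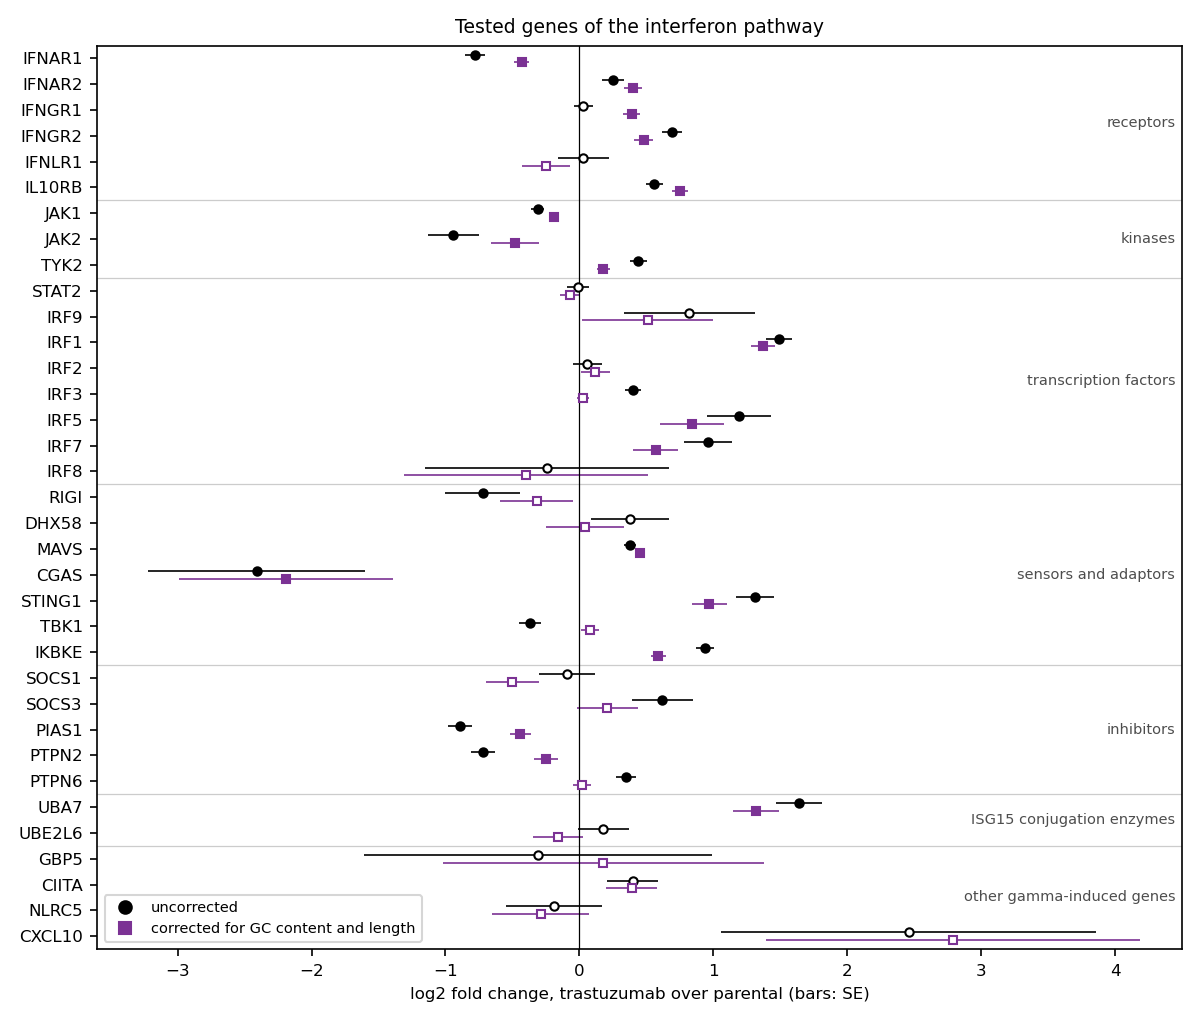
Log2 fold change (trastuzumab over parental) with its SE for tested genes of the interferon pathway outside the 50 members, ordered by role, without (circles) and with (squares) correction, filled where the adjusted p was below 0.05. IRF1 at 1.49, STING1 at 1.31 and UBA7 at 1.64 lie to the right, and IFNAR1 at -0.78 and JAK2 at -0.94 to the left. Further out lie 2 barely detected genes, CXCL10 at 2.46, which did not pass, and CGAS at -2.41.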

How the data were processed

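Per the labels' protocols, RNA was purified on RNeasy columns and 1 µg per library went into directional NEBNext Ultra II libraries. For each of 6 libraries the authors deposited unnormalized whole-number counts and FPKM, which divide by gene length and depth. The submitters' processing notes name STAR 2.4.2a and hg38. The counter, strand setting and annotation used are not given in the sources. Counts were tested with edgeR 4.0.16 (R 4.3.3): TMM factors, filterByExpr, robust quasi-likelihood F test without covariates, Benjamini-Hochberg adjustment over 17854 genes, threshold 0.05. The corrected fit adds offsets from a spline (5 degrees of freedom) on GC content and exonic length, taken with positions from GENCODE. Alternatives were other scalings, filters and thresholds, DESeq2 1.42.0, limma 3.58.1 on counts and on log2(FPKM + 1) and log2(FPKM + 0.1), the replicate number as a block, and leaving out libraries. Members and lists were chosen with earlier results of these data known. Every member could be named. Values per library are given for changed members of at least 1 CPM and 2-fold, the GBP genes, IDO1, WARS1, STAT2, IRF9, IRF1 and the 3 most abundant members by FPKM, and for further genes chosen after their values were seen. Pathway genes named are the receptors, kinases, transcription factors and every changed gene of at least 1 CPM, apart from a gene counted in the list but not reported here; CGAS, UBE2L6, SOCS1, CIITA and the 3 other gamma-induced genes tested were added after their values were seen. No libraries were duplicates: replicate pairs differed by 19.99 to 35.07 times the chi-square that sampling noise gives.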

Additional observations from a re-analysis of the deposited data

How the results depend on the processing

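The 17 members and 15 type I-like members that were higher came to 10 and 9 without trastuzumab replicates 2 and 3, an alternative chosen after seeing the data in which the lone library is assumed to vary like the parental ones, and to 9 and 9 with limma on log2(FPKM + 1) and on log2(FPKM + 0.1), where 21 members reached 1 FPKM. On these FPKM scales fewer members were tested, so 9 of 21 were higher, against 17 of 38 in the main fit, and 5 of 21 were lower. Of all 10851 genes tested there, 7447 and 7424 changed in either direction, in the same order of scales. The shares of those genes higher and lower were not counted. The 4 members and 3 type I-like members that were lower came to 1 and 1 with GC and length correction, and with correction and the replicate block. With correction and the block 13 members were higher, and 6350 of 17649 genes changed. The 2 gamma-like genes higher ranged from 2 to 4 with 1 library left out. They were 3 of 5 tested with no filter and in DESeq2, and 0 on both FPKM scales, where 1 was tested. The 1 gamma-like gene lower ranged from 0 to 1 with 1 library left out. It was 0 with upper quartile scaling, an adjusted p below 0.01, either correction and DESeq2. The 9 pathway genes lower were 5 with the block and correction. Same-numbered libraries did not pair (r = 0.24, -0.0167 and 0.0306 over 8947 genes; trastuzumab replicate 1 was closest to parental replicate 1, replicate 2 to 3), and with the replicate block the number of genes changed was 8653, with 15 members higher and 4 members lower; it moved no count by over 1.5 times. The alternative core AANNGAAAC was in 29 members. Signs turned with correction, then with block and correction, for EIF2AK2 (0.06, 0.06), IFIT5 (0.36, 0.37), IFITM1 (-0.31, -0.30), BST2 (-0.19, -0.18), PLSCR1 (0.00, 0.02), TRIM14 (-0.09, -0.09) and TBK1 (0.08, 0.08), and with correction for OASL (-0.08). Without trastuzumab replicates 2 and 3 they turned for IFIT1 (-0.81), MX1 (-0.77), IFI16 (-5.67), GBP3 (-0.37), IRF9 (-0.54), IFITM1 (-0.06) and STAT2 (0.02). STAT2 lay at 0.00 with relative log expression scaling and with no filter, 0.05 with upper quartile scaling, 0.01 in DESeq2 and from -0.06 to 0.06 with 1 library left out. SP110 lay at -0.02 with library totals alone and -0.01 on FPKM without a filter, IFNGR1 at -0.02 with library totals alone and -0.03, -0.04 and -0.03 on the FPKM scales, and with 1 library left out OASL ranged from -0.41 to 0.62, IFITM1 from -0.05 to 0.16, SP110 from -0.01 to 0.11 and IFNGR1 from -0.01 to 0.06. The causes were not tested. Of 1289 alternative values for 64 genes, 1126 kept direction and side of the threshold, 108 lost and 16 gained a call and 39 changed sign. These totals include the fit without trastuzumab replicates 2 and 3, whose calls rest on a lone library. Of 44 called genes, 28 kept their call in every alternative other than correction and the stricter threshold. A count of 0 allows up to 0.0428 CPM, and members near that level are limited by depth.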
